A study of Mus musculus with 20 samples.

Results

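Tex15 knockout (Tex15-/-) male germ cells of mice at postnatal day 2 (d2) were compared with heterozygous (Tex15+/-) germ cells of the same age, in genes and in repeat names. The libraries were chosen by the age and genotype in their labels: 4 knockout and 4 heterozygous libraries, 8 of the 20 in the series. The others are 6 libraries at embryonic day 16.5 (e16.5) and 6 at e18.5, 3 per genotype, used here only to ask whether the knockout effect differed with age. All mice had a mixed strain background, and the cells were sorted by flow cytometry on GFP before total RNA was extracted and amplified. Both genotypes carry a disrupted Tex15 allele, so by the labels the differences below are between no working copy and 1 working copy. The labels give neither the deleted part of Tex15, nor what drives GFP, nor how many mice stand behind a library. Triplicates are named in the series text, but 4 libraries per genotype were given for d2. Whether replicates are separate animals is not stated, and p-values reflect no more than the variation among these libraries.

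TEX15 is a nuclear protein of germ cells that is needed for male fertility. In fetal male germ cells, genome-wide DNA methylation is erased and then laid down again, and young copies of retrotransposons are silenced in that window by PIWI proteins guided by piRNAs. The nuclear PIWI protein MIWI2 (Piwil4) directs methylation to young L1 and IAP elements, and TEX15 is known as one of its partners. After birth the germ cells of the testis, called prospermatogonia, are about to resume division and move to the edge of the cords, and their methylation pattern is largely in place.

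Total counts per library, in units of 10 to the power 6, were 14.3 to 24.5 in knockout and 16.8 to 24.8 in heterozygous libraries, of which 7.78 to 12.1 and 8.15 to 14.1 lay in 24341 gene symbols. The rest lay in 1217 repeat names. Levels are given as counts-per-million (CPM) of the gene counts, scaled by TMM factors of the genes, also for repeats, whose values can therefore exceed those of genes by far. Values per library are in the order of replicates 1 to 4. Repeats took 50.2% ± 3.12 of all counts in knockout and 48.0% ± 3.51 in heterozygous libraries (SD, n = 4 each), which did not differ beyond the spread (two-sided exact permutation test, p = 0.4, smallest possible p 0.0286). Without knockout replicate 2 the knockout share was 51.7% ± 1.14 (two-sided exact permutation test against heterozygous libraries, p = 0.171, smallest possible p 0.0571).

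Tex15 was read first as a check of the labels. It lay at 2.07, 104, 2.51 and 2.62 CPM in knockout libraries, against 902, 842, 1024 and 631 CPM in heterozygous libraries. Knockout replicate 2 thus held Tex15 reads well above those of the other 3 knockout libraries, though below every heterozygous library. With it, Tex15 did not pass edgeR's test (log2 fold change -4.96, adjusted p = 0.17). Without it, the log2 fold change was -8.35 (adjusted p = 2.8e-14). Counts of calls are therefore mostly given with and without this library, which is called the library labelled knockout replicate 2. Values of single features are from all d2 libraries unless stated otherwise.

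Its position was measured on features that were called higher in a fit that left it out, as a percentage of the way from the heterozygous mean (0%) to the mean of the other 3 knockout libraries (100%). The library labelled knockout replicate 2 had a median position of 49.5% over 437 genes (quartiles 22.3 and 81.3%) and 40.5% over 152 repeat names (quartiles 7.39 and 73.5%). On 333 of these genes and 81 of these repeat names it still lay above all 4 heterozygous libraries. A like measure for knockout replicates 1, 3 and 4 gave 93.1, 103 and 85.8% for genes and 110%, 125% and 94.9% for repeat names. It covered fewer features, 154, 165 and 185 genes and 70, 64 and 72 repeat names. Its 100% mark also includes replicate 2, which tends to raise these positions, so the gap to replicate 2 is not an even comparison. Over the 140 genes other than Tex15 that were lower without replicate 2, the median position of replicate 2 was 63.7%.

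**Figure D1:**
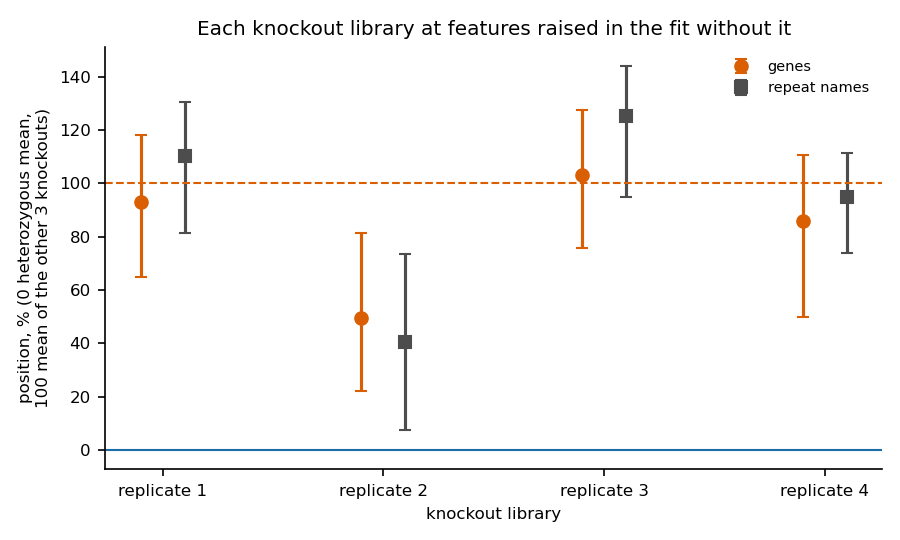
Position of each knockout library between the heterozygous mean (0%) and the mean of the other 3 knockout libraries (100%), for genes and for repeat names that were higher in a fit without that library; points are medians and bars the quartiles. Knockout replicate 2 has medians of 49.5% (genes) and 40.5% (repeat names), and the other 3 libraries lie between 85.8 and 125%. For those 3 libraries the 100% mark includes replicate 2.

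Nearly all repeat names called at d2 were higher in knockout cells. Of 1081 repeat names tested, 92 rose in knockout cells (8.51%) and 1 fell (0.0925%), together 8.6%, with an adjusted p under 0.05 in edgeR's quasi-likelihood test with Benjamini-Hochberg adjustment. The smallest p-values belonged to 2 IAP long terminal repeats, the young L1 name L1Md_A and the IAP body IAPEz-int. Without the library labelled knockout replicate 2, 152 of 1090 rose (13.9%) and 2 fell (0.183%), 14.1% in all, and 90 of the rises were called in both fits. Knockout and heterozygous values did not overlap for 70 of the 92 rises, where 10.3% of all repeat names did not overlap. When the repeats set their own scaling, the median log2 fold change over all repeat names moved by -0.21, to -0.015 from 0.19, and 95 rose while 24 fell.

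IAP elements are endogenous retroviruses that can still move in mice. IAPLTR1_Mm, a long terminal repeat of these elements, held 258, 265, 241 and 196 CPM in knockout libraries, against 24.6, 21.9, 25.05 and 35.0 CPM in heterozygous libraries. Every knockout library, replicate 2 included, lay far above every heterozygous library, and the mean was 239.9 ± 31.0 against 26.6 ± 5.72 CPM (SD, n = 4 each), 8.96-fold higher (log2 fold change 3.16, SE 0.21, adjusted p = 3.8e-49, edgeR). IAPLTR2a, another IAP long terminal repeat, held 356, 240.3, 273 and 277 CPM in knockout libraries, against 56.3, 45.9, 58.1 and 57.0 CPM in heterozygous libraries. Its groups did not overlap either, and it was 5.26-fold higher (log2 fold change 2.40, SE 0.20, adjusted p = 1.8e-31). IAPLTR2b rose 4.09-fold and IAPLTR2_Mm 2.36-fold. The internal part IAPEz-int, which encodes the retroviral proteins, held 1438, 1171, 1210.4 and 1234 CPM in knockout libraries, against 265, 246, 301 and 336 CPM in heterozygous libraries. It was 4.40-fold higher with no overlap (log2 fold change 2.14, SE 0.19, adjusted p = 3.1e-27). Of the 16 IAP names 12 rose, with a median log2 fold change of 0.91 over all 16, and without the library labelled knockout replicate 2 the count was 13. IAP-d-int did not pass, at 1245, 1048, 1373 and 1169 CPM in knockout libraries against 969, 911, 1043 and 1164 CPM in heterozygous libraries, with overlapping groups (adjusted p = 0.53).

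L1 elements copy themselves without long terminal repeats, and their young mouse types are named after their promoter repeats. L1Md_A held 4079.8, 3034, 3717 and 3934 CPM in knockout libraries, against 862, 553, 769 and 933 CPM in heterozygous libraries. The lowest knockout value was replicate 2 and was still above all heterozygous values; the mean was 4.74-fold higher (log2 fold change 2.24, SE 0.19, adjusted p = 4.4e-30). L1Md_Gf held 245, 235, 278 and 247 CPM in knockout libraries, against 95.6, 66.0, 84.8 and 98.3 CPM in heterozygous libraries (log2 fold change 1.54, SE 0.19, adjusted p = 8.2e-14). L1Md_T held 7023, 5939.7, 7161 and 6039 CPM in knockout libraries, against 3164, 2832, 3139 and 3136 CPM in heterozygous libraries (log2 fold change 1.09, SE 0.18, adjusted p = 1.2e-07). Neither of these 2 names overlapped between genotypes. L1Md_F (log2 fold change 1.06) and L1Md_F2 (log2 fold change 0.85) also rose. The sixth young L1 name, L1Md_F3, passed edgeR's test without the library labelled knockout replicate 2 but not with it (log2 fold change 0.45, adjusted p = 0.12 with it and 0.53, adjusted p = 0.014 without it), whereas DESeq2 called all 6 on 8 libraries. Of 102 older L1 and Lx names tested, 23 rose (37 without that library), led by L1VL1 (log2 fold change 1.09) and Lx2A1 (log2 fold change 0.92). Of all repeat names 8.51% rose (13.9% without it). The median log2 fold change of the older names, 0.26, lay near the 0.19 of all repeat names, whereas that of the 6 young L1 names was 1.08.

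**Figure D2:**
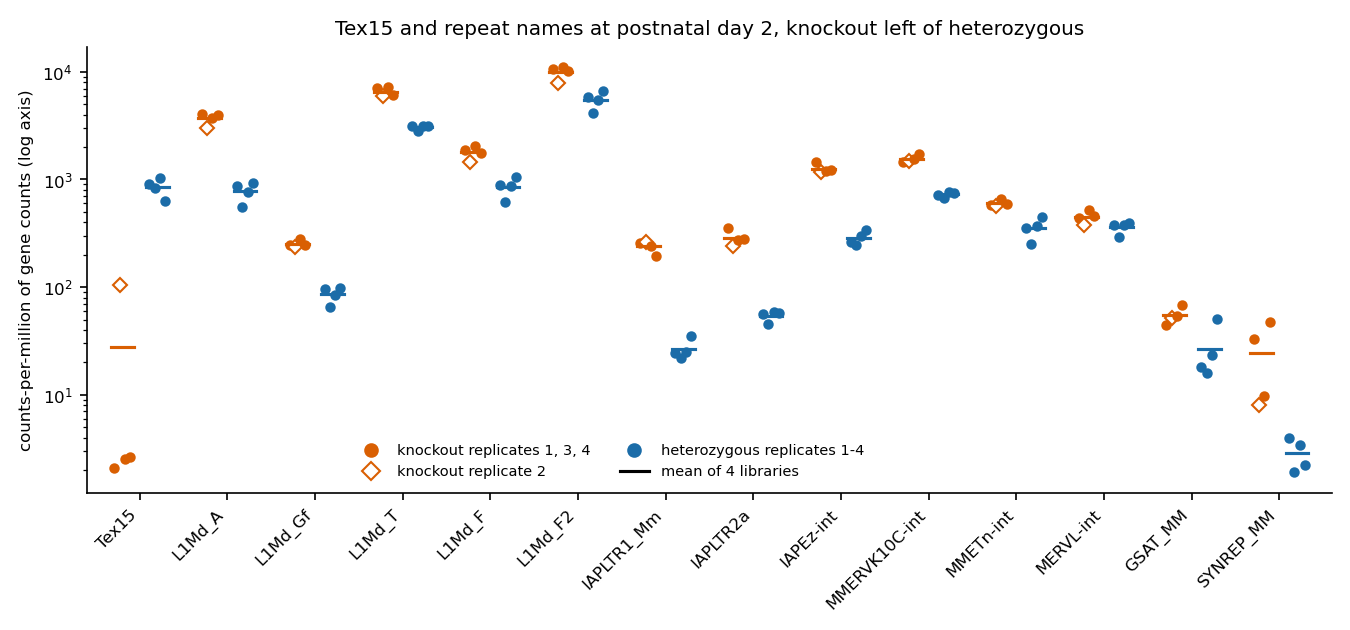
CPM (log axis) of Tex15 and of 13 repeat names in each d2 library, knockout left of heterozygous; circles are libraries, the open diamond is knockout replicate 2 and lines are means of 4 libraries. IAPLTR1_Mm lies between 196 and 265 CPM in knockout and between 21.9 and 35.0 CPM in heterozygous libraries, and knockout replicate 2 stands apart for Tex15 at 104 CPM.

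Other long terminal repeat elements followed with smaller rises. Of 9 MMERVK10C and RLTR10 names 8 rose (7 without the library labelled knockout replicate 2). MMERVK10C-int, the body of a class II retrovirus, held 1452, 1475, 1535 and 1738 CPM in knockout libraries, against 717, 674, 769 and 743 CPM in heterozygous libraries, 2.14-fold higher with no overlap (adjusted p = 2e-07). RLTR10A held 513, 455, 517 and 465 CPM in knockout libraries, against 181, 156, 194 and 188 CPM in heterozygous libraries, 2.71-fold higher (adjusted p = 6.3e-13). RLTR and RMER long terminal repeats rose in 25 of 142 names (35 without that library), and class I and gammaretroviral names in 8 of 38 (8 without it). Of all repeat names 8.51% rose (13.9% without it). The RLTR and RMER names include RLTR10A, so this group overlaps the MMERVK10C and RLTR10 names. Among the class I and gammaretroviral names RLTR1B-int held 563, 573, 542 and 495 CPM in knockout libraries, against 231, 185, 231 and 327 CPM in heterozygous libraries (log2 fold change 1.16, adjusted p = 2.1e-08). MMERGLN-int, the body of GLn retroviruses, held 1077, 1212, 1097 and 1116 CPM in knockout libraries, against 607, 543, 692 and 650.1 CPM in heterozygous libraries (log2 fold change 0.85, adjusted p = 0.00011). For both the library labelled knockout replicate 2 was the highest of all 8. Of 5 MusD and ETn names, which move with the proteins of MusD, MMETn-int (log2 fold change 0.76) and ETnERV3-int (log2 fold change 0.83) rose, and ETnERV2-int passed edgeR's test without that library but not with it (adjusted p = 0.01 without it and 0.054 with it). DESeq2 called 4 of the 5 on 8 libraries.

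Several repeat groups showed few or no calls. None of 7 MERVL and MT2 names, elements active in early cleavage embryos, passed edgeR's test, with or without the library labelled knockout replicate 2, and 0 had an unadjusted p under 0.05 or were called by DESeq2. MERVL-int held 442, 381, 515 and 454 CPM in knockout libraries, against 374, 290.5, 381 and 395 CPM in heterozygous libraries, with overlapping groups (log2 fold change 0.32, SE 0.18, adjusted p = 0.37). Of 107 MT, ORR1 and MLT names 5 rose (11 without that library), where 8.51% of all repeat names rose (13.9% without it). None of 32 SINE names passed edgeR's test (2 with an unadjusted p under 0.05, 0 called by DESeq2), and without that library B2_Mm1a (log2 fold change 0.54) and B2_Mm1t (log2 fold change 0.48) did. In both of these the library labelled knockout replicate 2 lay below at least 1 heterozygous library. Of 73 DNA transposon names 1 rose (4 without that library), Zaphod (log2 fold change 0.70, adjusted p = 0.0068), and its call ended without knockout replicate 3 (adjusted p = 0.11) or heterozygous replicate 1 (adjusted p = 0.11). Under the repeats' own scaling 4 SINE names and 3 DNA transposon names fell. The 1 name that fell with gene scaling was LTR52-int, at 9.90, 19.002, 12.7 and 8.02 CPM in knockout libraries, against 27.2, 22.6, 28.0 and 33.8 CPM in heterozygous libraries (log2 fold change -1.16, adjusted p = 9.4e-05).

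Satellite repeats, which make up the heterochromatin around centromeres, rose in 3 of 4 names tested, where 8.51% of all repeat names rose. Without the library labelled knockout replicate 2 all 4 rose (13.9% of all repeat names), while DESeq2 and the repeats' own scaling each called 1. Summed as a family, Satellite did not pass edgeR's test on all d2 libraries (log2 fold change 0.41, adjusted p = 0.12). SYNREP_MM held 33.0, 8.07, 9.66 and 47.9 CPM in knockout libraries, against 3.93, 1.90, 3.38 and 2.21 CPM in heterozygous libraries. Knockout replicates 1 and 4 were high and replicates 2 and 3 nearer to the heterozygous values, and the call ended without heterozygous replicate 2 (adjusted p = 0.14) or 4 (adjusted p = 0.084). GSAT_MM, the major satellite, held 44.5, 52.1, 54.0 and 68.6 CPM in knockout libraries, against 18.1, 15.8, 23.3 and 50.2 CPM in heterozygous libraries. Heterozygous replicate 4 overlapped the knockout range, and the call (log2 fold change 1.03, adjusted p = 9.4e-05) ended with DESeq2 (adjusted p = 0.097) and under the repeats' own scaling (adjusted p = 0.052).

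Summed over families, 3 of 51 rose (5.88%), namely L1, ERVK, which holds IAP and ETn elements, and ERV1. L1 held 263650.0, 205265, 293107 and 234906 CPM in knockout libraries, against 145947, 117639, 172690.0 and 181327 CPM in heterozygous libraries, with no overlap (log2 fold change 0.69, SE 0.17, adjusted p = 0.0045). The L1 call ended without knockout replicate 3 (adjusted p = 0.061) or heterozygous replicate 1 (adjusted p = 0.080). ERVK (log2 fold change 0.58, adjusted p = 0.016) and ERV1 (log2 fold change 0.51, adjusted p = 0.032) did not overlap between genotypes either. Of the 8 fits that each left out a library, both were called in 2, those without the library labelled knockout replicate 2 and without heterozygous replicate 4, and their adjusted p reached 0.14 (ERVK) and 0.23 (ERV1) in the others. Without the library labelled knockout replicate 2, 5 families rose (9.8%), the Satellite and Unknown families being added. Names within a family share reads and copies, so the counts of names are not counts of independent elements. The groups of repeat names were chosen with earlier results of these data known, so no excess is read from their counts.

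Genes changed in both directions, with more rises than falls. Of 15375 genes tested, 311 rose (2.02%) and 119 fell (0.774%) in knockout cells, 2.8% in all. The rises had a median log2 fold change of 0.89 and the falls of -0.97, and the median over all genes was -0.02. A log2 fold change above 3 was found for 58 rises, and one below -3 for 1 fall. In 56 of the rises the heterozygous mean lay under 1 CPM. When the library labelled knockout replicate 2 was left out, 437 of 15762 rose (2.77%) and 141 fell (0.895%), 3.67% in all, of which 283 rises and 84 falls were called in both fits. Leaving out knockout replicate 1 gave the smallest counts, 154 rises and 33 falls. Knockout and heterozygous values did not overlap for 292 of the 311 rises and 113 of the 119 falls, where 9.89% of all genes did not overlap.

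**Figure D3:**
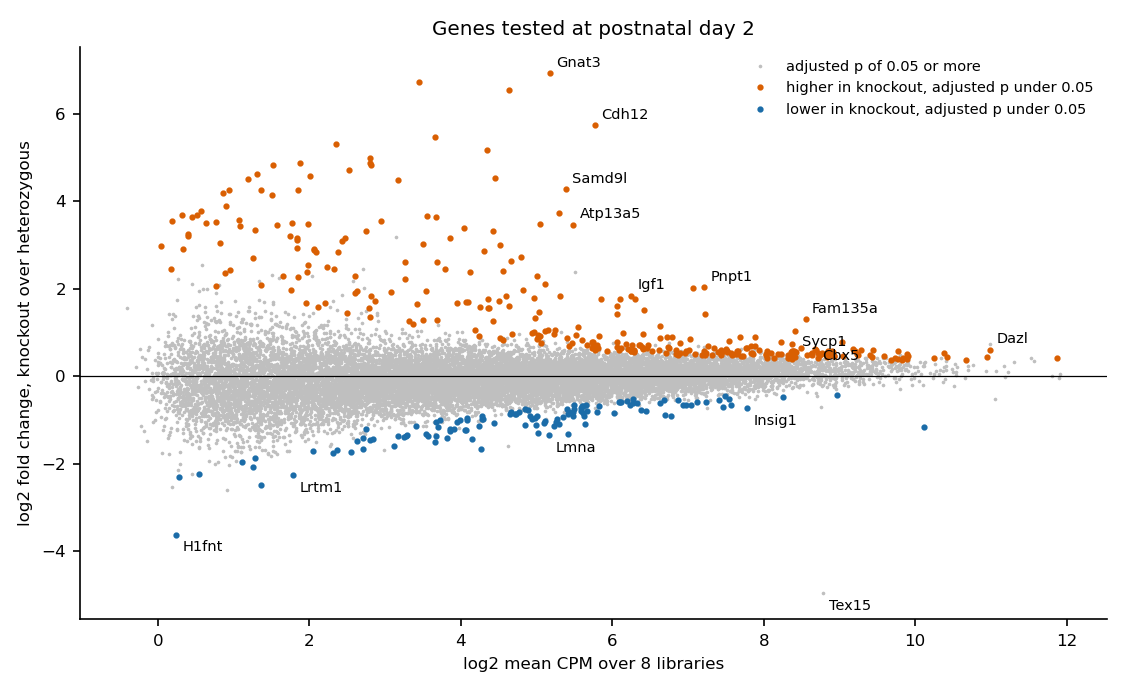
Log2 fold change (knockout over heterozygous) against mean log2 CPM of the 15375 genes tested at d2, with the 311 called rises in orange, the 119 called falls in blue and other genes in grey. The largest rises reach a log2 fold change of 6.94 (Gnat3), and H1fnt is the 1 fall below -3.

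The largest rises were in genes near 0 in heterozygous cells, several of them known from other tissues. Gnat3, the alpha subunit of gustducin in taste cells, held 90.9, 51.8, 75.9 and 68.2 CPM in knockout libraries, against 0.310, 0, 0 and 1.39 CPM in heterozygous libraries (log2 fold change 6.94, SE 0.53, adjusted p = 3.3e-06). Cdh12, a neuronal cadherin of the cell surface, held 113, 99.0, 109.8 and 107 CPM in knockout libraries, against 3.31, 0.846, 1.51 and 1.74 CPM in heterozygous libraries (log2 fold change 5.74, SE 0.28, adjusted p = 1.4e-10). For both genes all 4 knockout libraries, replicate 2 among them, were high and all heterozygous libraries low. Without replicate 2 the log2 fold changes were 7.08 (Gnat3) and 5.79 (Cdh12). Cdh19, a relative of Cdh12, held 84.1, 41.0, 25.4 and 46.6 CPM in knockout libraries, against 0.207, 0.282, 0.350 and 0.465 CPM in heterozygous libraries (log2 fold change 6.56, adjusted p = 4.8e-09). Cyp4a12b, a cytochrome P450 that hydroxylates fatty acids, held 23.1, 18.1, 18.5 and 27.2 CPM in knockout libraries, against 0 CPM in each heterozygous library. With 813 counts against 0 it was at least 307-fold higher, taking the 3 counts over the group that a count of 0 allows as the floor. Reg2 was likewise at 0 in all heterozygous libraries and at least 80.3-fold higher. Cyp4a12b has a close relative, Cyp4a12a, and how reads shared by near-identical genes were counted is not stated.

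The other large rises were of mixed kinds. Slco1a5, an organic anion transporter, held 38.5, 31.0, 46.0 and 43.3 CPM in knockout libraries, against 1.14, 0.212, 1.40 and 1.05 CPM in heterozygous libraries (log2 fold change 5.18, SE 0.36, adjusted p = 1.7e-08). Apoh, a plasma protein made by the liver, held 27.2, 31.9, 24.7 and 15.7 CPM in knockout libraries, against 0.103, 0.0705, 0 and 1.39 CPM in heterozygous libraries (log2 fold change 5.47, adjusted p = 3.4e-05). Abcb11, the bile salt export pump, rested on 252 counts against 2, a ratio with a 95% exact counting interval of 39.1 to 1184. Defb4, a defensin (log2 fold change 4.89), Clec2g, a lectin (log2 fold change 4.84), and Asb12, a SOCS box protein (log2 fold change 4.72), also rose. Each of these genes passed in all 8 fits that left out 1 library.

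Rises in well expressed genes were smaller in fold but as clear of the spread. Samd9l, an interferon-inducible gene that restrains growth, held 92.9, 70.2, 72.5 and 84.1 CPM in knockout libraries, against 2.48, 2.89, 4.43 and 6.16 CPM in heterozygous libraries (log2 fold change 4.28, SE 0.25, adjusted p = 2.7e-09). Pnpt1, the mitochondrial polynucleotide phosphorylase, held 278, 162, 235 and 279 CPM in knockout libraries, against 51.9, 57.7, 61.8 and 58.8 CPM in heterozygous libraries (log2 fold change 2.05, SE 0.16, adjusted p = 1.1e-07). Knockout replicate 2 was the lowest knockout library for both, yet above every heterozygous library. Without it the log2 fold changes were 4.34 (Samd9l) and 2.20 (Pnpt1). Igf1, the growth factor, held 105, 115, 139.7 and 116 CPM in knockout libraries, against 35.8, 23.8, 39.0 and 33.8 CPM in heterozygous libraries (log2 fold change 1.84, SE 0.17, adjusted p = 1.3e-06). Fam135a held 562, 460.1, 566 and 555 CPM in knockout libraries, against 227, 188, 253 and 196 CPM in heterozygous libraries (log2 fold change 1.31, adjusted p = 1.5e-06). Atp13a5, a transport ATPase (log2 fold change 3.47), Spag16, a protein of the sperm axoneme (3.49), Tmc2, a channel protein of inner ear hair cells (3.74), Baiap2l1, an adaptor of membrane and actin (2.02), and Inadl, a cell polarity scaffold (1.77), rose as well. No knockout library overlapped the heterozygous range for any of them.

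Promoter windows of Gnat3 and Samd9l are shown because both rose strongly. They are RefSeq sequences of build GRCm38.p6, from 250 bases before to 50 after the start, 5′ to 3′ on the gene's strand, with every CG in capitals. CG dinucleotides are where mammalian DNA is methylated, and the counts of CG describe these letters only. The windows are Gnat3 at chr5:17962320-17962619 (+ strand, 4 CG) and Samd9l at chr6:3399522-3399821 (- strand, 1 CG).
Gnat3: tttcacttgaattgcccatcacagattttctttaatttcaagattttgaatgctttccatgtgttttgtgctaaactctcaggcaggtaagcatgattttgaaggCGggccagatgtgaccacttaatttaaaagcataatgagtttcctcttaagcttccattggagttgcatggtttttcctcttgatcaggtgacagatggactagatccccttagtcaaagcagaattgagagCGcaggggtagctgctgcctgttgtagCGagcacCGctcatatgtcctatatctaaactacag
Samd9l: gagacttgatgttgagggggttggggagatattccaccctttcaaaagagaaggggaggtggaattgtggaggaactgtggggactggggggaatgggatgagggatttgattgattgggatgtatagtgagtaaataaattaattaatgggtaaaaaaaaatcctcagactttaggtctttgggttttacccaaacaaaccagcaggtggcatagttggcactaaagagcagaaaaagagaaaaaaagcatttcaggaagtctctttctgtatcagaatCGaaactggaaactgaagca
Among 32851 such windows the median was 7 CG and 94.6% held at least 1. As few or fewer CG than in Gnat3 were found in 38.0% of them, and as few or fewer than in Samd9l in 14.1%. The window of Cdh12, which rose by a log2 fold change of 5.74, held 9 CG and is not printed. As few or fewer were found in 56.5% of windows. Whether the rises go with the number of CG was not tested.

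**Figure D4:**
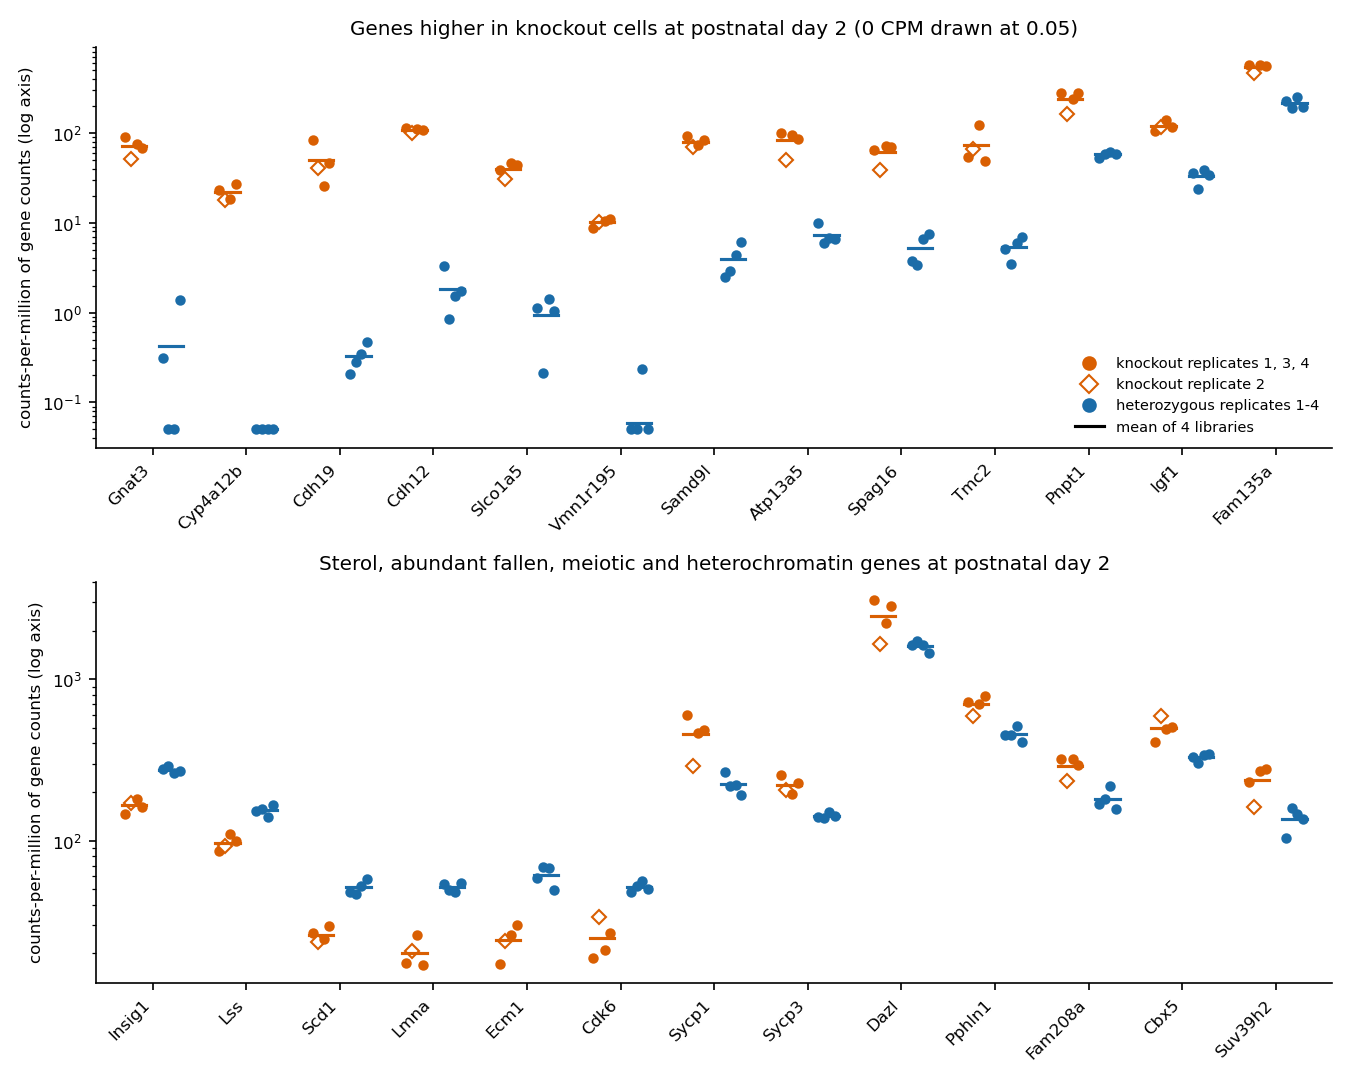
CPM (log axis, with 0 drawn at 0.05) of named genes in each d2 library, knockout left of heterozygous, with knockout replicate 2 as an open diamond and lines at the means of 4 libraries. The upper panel shows genes higher in knockout cells, such as Gnat3 at 51.8 to 90.9 CPM in knockout and 0 to 1.39 CPM in heterozygous libraries. The lower panel shows sterol, germ cell and chromatin genes and well expressed genes that fell, such as Lmna, with mostly smaller differences.

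Sensory receptor genes came in large families of which few were counted. Of 1106 olfactory receptor symbols 19 passed the filter on low counts, which a gene could pass through its knockout libraries alone, and 4 of these rose (7 of 27 tested without the library labelled knockout replicate 2). Of all genes tested 2.02% rose (2.77% without that library). Genes that pass through their knockout libraries alone are bound to lie higher there, so no excess is read from these counts. Olfr792 held 2.94, 5.34, 7.67 and 2.20 CPM and Olfr559 3.81, 1.30, 7.54 and 2.53 CPM in knockout libraries, while both were at 0 in all heterozygous libraries (at least 57.3-fold and 49.8-fold higher). Olfr701 and Olfr417 rose as well. Of 329 vomeronasal receptor symbols 9 were tested and 2 rose (2 of 10 without that library). Vmn1r195 held 8.81, 10.3, 10.3 and 10.9 CPM in knockout libraries, against 0, 0, 0.233 and 0 CPM in heterozygous libraries. Vmn2r96 was at 0 in all heterozygous libraries and at least 49.8-fold higher. Members of these families resemble each other, so reads could be split among them. The Olfr417 call ended in 5 of the 8 fits that each left out a library, where its adjusted p reached 0.079.

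Few meiotic and germline genes passed the test, most of them as rises. Of 36 meiotic prophase genes Sycp1 and Sycp3, both parts of the synaptonemal complex that joins homologous chromosomes, rose and none fell. Of all genes tested 2.02% rose and 0.774% fell. The gene lists were chosen with earlier results of these data known, so no excess is read from their counts. Sycp1 held 599.8, 288, 466 and 486 CPM in knockout libraries, against 265, 217, 222 and 191 CPM in heterozygous libraries (log2 fold change 1.04, SE 0.17, adjusted p = 0.0022). Sycp3 held 255, 204, 195 and 227 CPM in knockout libraries, against 139.7, 137, 149.9 and 141 CPM in heterozygous libraries (log2 fold change 0.63, SE 0.12, adjusted p = 0.0057). The genotypes did not overlap for these genes. Without the library labelled knockout replicate 2, Sycp2 (log2 fold change 0.60), the chromosome axis gene Hormad1 (0.50) and the meiotic cohesin Smc1b (0.58) were added. Dazl, an RNA-binding protein that defines germ cells, held 3089, 1661, 2223 and 2848 CPM in knockout libraries, against 1624, 1733, 1631 and 1454 CPM in heterozygous libraries. Its replicate 2 lay inside the heterozygous range, and the log2 fold change was 0.61 (adjusted p = 0.035) with it and 0.76 (adjusted p = 0.0015) without it. Leaving out any of knockout replicates 1, 3 and 4 or heterozygous replicates 1, 3 and 4 ended the Dazl call (adjusted p of 0.052 to 0.14).

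Of 30 germline genes whose promoters are methylated in other tissues, 3 rose (Sycp1, Sycp3, Dazl) and Dpep3, a dipeptidase of germ cells, fell (log2 fold change -0.82, adjusted p = 0.041). The Dpep3 call held in 1 of the 8 fits without 1 library. With the library labelled knockout replicate 2 left out, 6 rose and 0 fell, with Asz1, Hormad1 and Slc25a31 added. Recombination repair genes rose in 1 of 34, where 2.02% of all genes rose, and in 3 without that library, where 2.77% of all genes did. Fancd2, of the Fanconi pathway for DNA crosslinks, held 157, 116, 149 and 128 CPM in knockout libraries, against 74.2, 89.2, 75.4 and 55.6 CPM in heterozygous libraries (log2 fold change 0.90, SE 0.16, adjusted p = 0.0023), with no overlap. Rad50 (0.44) and Atm (0.59), sensors of DNA breaks, passed without that library. The same windows as above are shown for Sycp1, at chr3:102936051-102936350 (- strand, 21 CG), and Dazl, at chr17:50293571-50293870 (- strand, 28 CG), because these genes are among those with methylated promoters in other tissues.
Sycp1: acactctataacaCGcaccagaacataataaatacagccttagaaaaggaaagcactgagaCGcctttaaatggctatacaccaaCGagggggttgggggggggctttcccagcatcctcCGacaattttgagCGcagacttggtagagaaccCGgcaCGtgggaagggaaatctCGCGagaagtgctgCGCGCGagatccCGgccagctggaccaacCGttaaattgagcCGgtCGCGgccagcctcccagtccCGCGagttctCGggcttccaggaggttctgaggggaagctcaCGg
Dazl: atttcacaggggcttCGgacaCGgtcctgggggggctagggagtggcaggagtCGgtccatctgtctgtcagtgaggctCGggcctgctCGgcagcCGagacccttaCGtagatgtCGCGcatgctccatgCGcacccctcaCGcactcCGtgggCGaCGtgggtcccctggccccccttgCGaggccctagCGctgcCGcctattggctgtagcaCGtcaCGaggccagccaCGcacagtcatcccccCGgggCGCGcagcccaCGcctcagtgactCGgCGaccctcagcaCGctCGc
Of all windows, 76.9% held as few or fewer CG than that of Sycp1 and 87.1% as few or fewer than that of Dazl.

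Genes of heterochromatin and histone-based silencing rose in 5 of 27 and none fell, where 2.02% of all genes rose and 0.774% fell. The median log2 fold change was 0.23 over the 27, against -0.02 for all genes. This list was chosen with earlier results of these data known, so no excess is read from its count or median. Pphln1 and Fam208a both belong to the HUSH complex, which silences L1 copies. Pphln1 held 726, 592, 699.9 and 792 CPM in knockout libraries, against 451, 451, 513 and 407 CPM in heterozygous libraries (log2 fold change 0.62, SE 0.12, adjusted p = 0.0042). Fam208a held 320.3, 233, 321 and 294 CPM in knockout libraries, against 169, 181, 219 and 157 CPM in heterozygous libraries (log2 fold change 0.68, SE 0.14, adjusted p = 0.0073). Cbx5, the heterochromatin protein HP1-alpha, held 408, 591, 494 and 503 CPM in knockout libraries, against 329, 302, 341 and 342 CPM in heterozygous libraries (log2 fold change 0.60, SE 0.12, adjusted p = 0.0078). No overlap was seen for these genes, and for Cbx5 the library labelled knockout replicate 2 was the highest. Rif1, which times replication (log2 fold change 0.58), and Suv39h2, an H3K9 methyltransferase (0.80), rose too. The Suv39h2 call ended without knockout replicate 3 (adjusted p = 0.055), knockout replicate 4 (adjusted p = 0.052) or heterozygous replicate 1 (adjusted p = 0.052). Without the library labelled knockout replicate 2 the chromatin remodeller Hells (0.74) was added as a rise and Ehmt2, another H3K9 methyltransferase, as a fall (-0.75).

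The piRNA pathway and the DNA methylation machinery held few calls. Of all genes tested 2.8% were called (3.67% without the library labelled knockout replicate 2), a share at which lists of this size hold few calls. None of 31 piRNA pathway genes, a list that includes Tex15, passed edgeR's test on 8 libraries. Of these, 6 had an unadjusted p under 0.05, Tex15 among them, and DESeq2 called 1, the fall of Tex15 itself. Without the library labelled knockout replicate 2, Asz1, a protein of germ granules, rose (log2 fold change 0.48, adjusted p = 0.039) and Tex15 fell. Asz1 held 215, 156, 213 and 197 CPM in knockout libraries, against 131, 154, 163 and 149.7 CPM in heterozygous libraries. None of 17 DNA methylation genes passed in either fit, with 2 at an unadjusted p under 0.05 and 0 called by DESeq2. Gtsf1, a piRNA factor of fetal germ cells, held 62.8, 74.2, 60.7 and 75.3 CPM in knockout libraries, against 102, 93.1, 71.5 and 101.3 CPM in heterozygous libraries and did not pass at d2 (adjusted p = 0.16).

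Sterol genes, where called, were mostly lower. Of 28 genes of sterol synthesis, uptake and export 5 fell and 1 rose, where 0.774% of all genes fell and 2.02% rose. The median log2 fold change was -0.44, against -0.02 for all genes. As this list was chosen with earlier results of these data known, no excess is read from its count or median. Hmgcs1, an enzyme of sterol synthesis that cells commonly express, was listed at 0 in all 8 libraries and was not tested, so a 0 in these counts need not mean that a gene is silent. Insig1, which holds back the sterol sensor of the cell, held 146, 171, 182 and 162 CPM in knockout libraries, against 279.5, 292, 261 and 269 CPM in heterozygous libraries (log2 fold change -0.74, SE 0.12, adjusted p = 0.00083). Lss, the lanosterol synthase, held 86.0, 92.8, 110.5 and 99.4 CPM in knockout libraries, against 153, 157, 141 and 166 CPM in heterozygous libraries (log2 fold change -0.67, SE 0.13, adjusted p = 0.0065). Every knockout library lay below every heterozygous library for both. Dhcr7, a reductase of cholesterol synthesis (log2 fold change -0.62), and the transcription factor Srebf2 (-0.58) fell as well. Abca1, which exports cholesterol, held 255, 225, 234 and 208 CPM in knockout libraries, against 164, 161, 167 and 154 CPM in heterozygous libraries (log2 fold change 0.51, SE 0.12, adjusted p = 0.019). The Abca1 call ended without knockout replicate 1 (adjusted p = 0.096), knockout replicate 3 (adjusted p = 0.059) or heterozygous replicate 1 (adjusted p = 0.056). In the fit that left out the library labelled knockout replicate 2, Fdps, the farnesyl diphosphate synthase, was added as a fall (-0.78). Scd1, a fatty acid desaturase outside that list, held 26.9, 23.4, 24.6 and 29.4 CPM in knockout libraries, against 47.8, 46.3, 52.5 and 58.2 CPM in heterozygous libraries (log2 fold change -0.97, adjusted p = 0.0038).

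Falls among well expressed genes included structural genes and the cell cycle gene Cdk6. Lmna, which encodes lamins A and C of the nuclear envelope, held 17.4, 20.6, 25.9 and 17.1 CPM in knockout libraries, against 53.5, 49.2, 47.9 and 54.9 CPM in heterozygous libraries (log2 fold change -1.34, SE 0.19, adjusted p = 0.00029). Ecm1, an extracellular matrix protein, held 17.1, 23.8, 25.9 and 29.9 CPM in knockout libraries, against 58.9, 69.0, 67.2 and 49.2 CPM in heterozygous libraries (log2 fold change -1.33, SE 0.20, adjusted p = 0.00046). Cdk6, a kinase of cell cycle entry, held 18.6, 33.4, 20.9 and 26.8 CPM in knockout libraries, against 48.1, 52.1, 56.4 and 49.9 CPM in heterozygous libraries (log2 fold change -1.04, SE 0.20, adjusted p = 0.0055). The genotypes were separate for each of these genes. Without the library labelled knockout replicate 2 the log2 fold changes were -1.35 (Lmna), -1.32 (Ecm1) and -1.21 (Cdk6). Casz1, a zinc finger factor (log2 fold change -0.88), Plec, a linker of the cytoskeleton (-0.92), Bcas1 (-1.15), Abi3, a regulator of actin (-1.30), and Bag6, a chaperone (-0.69), fell too. Cdk6 was the 1 call among 42 proliferation genes, where 2.8% of all genes were called. Their median log2 fold change was 0.16, against -0.02 for all genes, so the fall of Cdk6 does not stand for the list. Without the library labelled knockout replicate 2, Ccnd2 (0.39), a cyclin of the same kinase, and Bub1 (0.67) of the spindle checkpoint were added as rises.

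Several of the largest falls rested on low counts. H1fnt, a linker histone of spermatids, was at 0 in all 4 knockout libraries, against 1.45, 1.76, 2.68 and 3.48 CPM in heterozygous libraries (adjusted p = 0.0015), and was the 1 fall among 19 spermiogenesis genes. H2-D1, a class I histocompatibility gene, held 2.83, 3.90, 5.29 and 4.81 CPM in knockout libraries, against 10.5, 14.5, 15.3 and 12.4 CPM in heterozygous libraries (log2 fold change -1.60, SE 0.31, adjusted p = 0.0067). Srrm4, a splicing factor of neurons, held 5.22, 11.6, 10.1 and 9.46 CPM in knockout libraries, against 27.1, 13.8, 25.2 and 51.5 CPM in heterozygous libraries (log2 fold change -1.67, adjusted p = 0.012). These 3 passed in all 8 fits without 1 library. The oocyte transcription factor Nobox held 0.761, 0.911, 0.397 and 0.929 CPM in knockout libraries, against 4.13, 1.69, 3.73 and 4.65 CPM in heterozygous libraries (log2 fold change -1.96, adjusted p = 0.049), and passed in 1 of those 8 fits. Lrtm1, the nucleoside transporter Slc28a3, Mybpc2, Pcdhgc5, the muscle sodium channel Scn4a, the kinesin Kif19a, Upk1b, Pcp4 and H60b had log2 fold changes of -1.47 (H60b) to -2.25 (Lrtm1). They passed in 0 (Mybpc2) to 4 (Upk1b, H60b) of the 8 fits without 1 library.

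Most other gene groups held few calls or none. With 2.8% of all genes called (3.67% without the library labelled knockout replicate 2), lists of this size hold few calls in any case. EdgeR called none of 14 prospermatogonial, 21 pluripotency, 17 spermatogonial differentiation, 40 imprinted, 31 p53 target, 19 histone and 12 Rhox genes. At an unadjusted p under 0.05 these held 4, 6, 2, 8, 7, 2 and 0 genes, and DESeq2 called 0, 0, 1, 2, 0, 1 and 0. When the library labelled knockout replicate 2 was left out, Lin28b (log2 fold change 0.48) of the pluripotency genes, Ccnd2 of the differentiation genes and, of the p53 targets, Trp53inp1 (0.63) and Trp63 (-1.28) passed. Of 10 germ cell identity genes Dazl alone was called. Of 32 stem and progenitor genes Egr3, an immediate early factor, was called lower, at 131, 93.8, 90.0 and 131 CPM in knockout libraries, against 178, 157, 178 and 156 CPM in heterozygous libraries (adjusted p = 0.035, and 0.072 without that library). Of 3 cleavage-stage genes tested, of 24 in the table, Eif1a rose (log2 fold change 0.60, adjusted p = 0.016). Ifi44 alone rose among 31 interferon genes, with 8.70, 11.2, 7.67 and 4.81 CPM in knockout libraries, against 0.103, 1.27, 0.233 and 3.48 CPM in heterozygous libraries (adjusted p = 0.042). Hspa8, a chaperone with many near-identical copies, held 154, 140.3, 151 and 42.1 CPM in knockout libraries, against 30.0, 40.6, 47.0 and 23.6 CPM in heterozygous libraries (adjusted p = 0.029), with an overlap at replicate 4. Of 72 ribosomal protein genes Rpl3 alone fell (adjusted p = 0.036), and of 23 clustered protocadherins Pcdhgc5 alone. Of the 8 fits that each left out a library, Egr3 and Eif1a passed in 4, Hspa8 in 3, Rpl3 in 2 and Ifi44 in 1. Their highest adjusted p there was 0.13 (Egr3), 0.084 (Eif1a), 0.10 (Hspa8), 0.12 (Rpl3) and 0.11 (Ifi44).

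Markers of other testis cells were present at low levels in both genotypes. The germ cell identity genes summed to 4398 to 5633 CPM in knockout and 3999.65 to 4399.9 CPM in heterozygous libraries, and the libraries hold their defining genes. Of 10 Sertoli cell markers tested Sox9 fell, at 9.57, 6.51, 8.73 and 14.7 CPM in knockout libraries, against 25.3, 27.4, 26.1 and 15.9 CPM in heterozygous libraries (log2 fold change -1.24, adjusted p = 0.019). That call ended without knockout replicate 1 (adjusted p = 0.068), knockout replicate 3 (adjusted p = 0.067), heterozygous replicate 1 (adjusted p = 0.066) or heterozygous replicate 3 (adjusted p = 0.060). The 13 Sertoli markers summed to 84.0 to 118 CPM in knockout and 109 to 121 CPM in heterozygous libraries. No marker passed edgeR's test among 4 for Leydig cells, 18 for stroma and peritubular cells, 9 for endothelium, 4 for macrophages and white blood cells and 1 for red blood cells. An unadjusted p under 0.05 was found for 0, 3, 2, 0 and 0 of these, and DESeq2 called 1 stroma marker, as a rise. Their sums in knockout and heterozygous libraries were 33.8 to 48.9 and 32.5 to 61.7 CPM for Leydig cells, and 503 to 768 and 519.9 to 617 CPM for stroma. They were 125 to 172 and 144 to 198 CPM for endothelium, 46.3 to 68.1 and 52.5 to 67.2 CPM for white blood cells, and 3.46 to 10.2 and 5.06 to 9.18 CPM for red blood cells. Insl3, C1qa and 7 globin genes were listed at 0 in all 8 libraries, as was Hmgcs1 among the sterol genes. The stroma sum of 768 CPM, the highest of the 8 libraries, belonged to knockout replicate 2. In bulk libraries, fewer cells of a type and less RNA per cell cannot be told apart. Rn45s, the precursor of ribosomal RNA, named after its values were seen, held 580.0, 493, 655 and 1029 CPM in knockout libraries, against 1604, 2007, 1388 and 1118 CPM in heterozygous libraries (log2 fold change -1.15, adjusted p = 0.0137). The part of these markers and of Rn45s in the other results was not tested.

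The knockout effect at d2 was set against that at the embryonic ages in a joint fit of all 20 libraries, by a test of the difference between effects. For genes, the effect differed between d2 and e18.5 in 98 of 18571 (0.528%), being more positive at d2 in 66 (0.355%) and more negative in 32 (0.172%). Between d2 and e16.5 it differed in 149 (0.802%), in 132 more positive (0.711%) and in 17 more negative (0.0915%). For repeat names the counts were 12 of 1148 against e18.5 (1.05%), 7 more positive (0.61%) and 5 more negative (0.436%), and 97 against e16.5 (8.45%), all more positive at d2. Of 51 families 1 differed against e18.5 (Satellite, 1.96%) and 2 against e16.5 (L1 and Satellite, 3.92%), all more positive at d2. Both comparisons share the d2 libraries. Without knockout replicate 2 of d2 the counts were 226 genes against e18.5 and 243 repeat names against e16.5. Without knockout replicate 3 of e18.5 the first was 31 genes, and without knockout replicate 2 of e16.5 the second was 45 repeat names.

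Several of the genes named for a difference between ages that were high in d2 knockout cells were also high in heterozygous cells at e16.5. CPM were scaled within each age, and changes of level between ages were not tested. Gnat3 lay at 21.2 to 32.8, 18.8 to 21.6 and 51.8 to 90.9 CPM in knockout libraries at e16.5, e18.5 and d2, against 19.09 to 36.1, 4.88 to 7.99 and 0 to 1.39 CPM in heterozygous libraries. Its knockout effect was larger at d2 than at e18.5 by 5.24 and larger than at e16.5 by 7.02 on the log2 scale (adjusted p = 3.7e-05 and 8.8e-08). Cdh12 lay at 59.5 to 74.996, 62.4 to 64.7 and 99.0 to 113 CPM in knockout libraries, against 50.2 to 81.4, 9.83 to 29.2 and 0.846 to 3.31 CPM in heterozygous libraries (differences 3.84 and 5.70). Samd9l lay at 41.9 to 48.6, 20.1 to 31.4 and 70.2 to 92.9 CPM in knockout libraries, against 42.4 to 55.1, 14.3 to 22.2 and 2.48 to 6.16 CPM in heterozygous libraries (differences 3.91 and 4.40). In each of these genes the genotypes overlapped at e16.5 and were far apart at d2. Igf1 was likewise highest at e16.5 and lowest at d2 in heterozygous cells, at 79.8 to 115, 89.8 to 119 and 105 to 139.7 CPM in knockout libraries, against 112 to 147, 63.5 to 82.0 and 23.8 to 39.0 CPM in heterozygous libraries (differences 1.33 and 2.35). Tmc2 (4.10), Slco1a5 (5.95), Abcb11 (4.91) and Cyp4a12b (5.70) also had a more positive effect at d2 than at e16.5. The effect on Gtsf1 was less negative at d2 than at e18.5 by 1.18 (adjusted p = 0.0088), and at e18.5 it lay at 26.7 to 29.6 CPM in knockout and 72.0 to 97.9 CPM in heterozygous libraries. Abca1 lay at 123 to 180.3 and 131 to 188 CPM in knockout libraries at e16.5 and e18.5, against 89.8 to 111 and 286 to 311 CPM in heterozygous libraries, and its effect was more positive at d2 than at e18.5 by 1.49 (adjusted p = 9.6e-05).

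By CPM scaled within each age, IAPLTR1_Mm and IAPLTR2a in heterozygous cells were highest at e16.5 and lowest at d2. These changes of level between ages were not tested. IAPLTR1_Mm lay at 174 to 222, 178 to 206 and 196 to 265 CPM in knockout libraries at e16.5, e18.5 and d2, against 83.0 to 126, 45.1 to 53.5 and 21.9 to 35.0 CPM in heterozygous libraries. Its knockout effect was larger at d2 than at e18.5 by 1.23 (adjusted p = 0.0016) and than at e16.5 by 2.22 (adjusted p = 7.6e-13) on the log2 scale. IAPLTR2a lay at 201 to 252, 303 to 348 and 240.3 to 356 CPM in knockout libraries, against 214 to 306, 119 to 159.9 and 45.9 to 58.1 CPM in heterozygous libraries. By these CPM the knockout range of IAPLTR2a at d2 covered that at e18.5. The effect on IAPLTR2a differed by 1.15 and 2.55, and that on IAPEz-int by 1.07 and 1.40. L1Md_A lay at 3156 to 4053, 11423 to 13351 and 3034 to 4079.8 CPM in knockout libraries, against 3596 to 4652, 3239.6 to 7335 and 553 to 933 CPM in heterozygous libraries. Its effect was larger at d2 than at e16.5 by 2.50 (adjusted p = 1.6e-16) and did not pass against e18.5 (0.85, SE 0.25, adjusted p = 0.079). For L1Md_T the difference from e18.5 was -0.37 with an SE of 0.25 and did not pass either.

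Other retroviral names were higher in knockout cells at e18.5 but less so or not at d2. MuRRS-int lay at 827 to 959 CPM in knockout and 310.0 to 379.5 CPM in heterozygous libraries at e18.5. At d2 it lay at 156 to 222 CPM in knockout and 134 to 201 CPM in heterozygous libraries, and its effect was less positive at d2 by 1.29 (difference -1.29, adjusted p = 0.00028). IAPLTR4_I (-1.61), RLTR6-int (-0.997), ETnERV-int (-0.94) and MURVY-int (-1.34) differed in the same direction. MURVY-int, of a retrovirus found on the Y chromosome, held 79.7, 67.2, 96.5 and 77.5 CPM in d2 knockout libraries, against 93.4, 106, 109.6 and 141 CPM in d2 heterozygous libraries (log2 fold change -0.49, adjusted p = 0.12), overlapping at 1 knockout library. SYNREP_MM (4.03) and MLT1L-int (3.41), both counted low, differed in the other direction, as did the Satellite family (1.73). In the joint fit the log2 effects at e18.5 were negative, at -0.96 (SYNREP_MM), -1.48 (MLT1L-int) and -1.31 (Satellite). At d2 they were 3.07, 1.93 and 0.42. The Satellite family lay at 3146 to 3750 CPM in knockout and 5632 to 9863 CPM in heterozygous libraries at e18.5. GSAT_MM lay at 27.0 to 113 CPM in knockout and 532 to 12466 CPM in heterozygous libraries at e16.5, a spread within the heterozygous group far above that at d2.

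**Figure D5:**
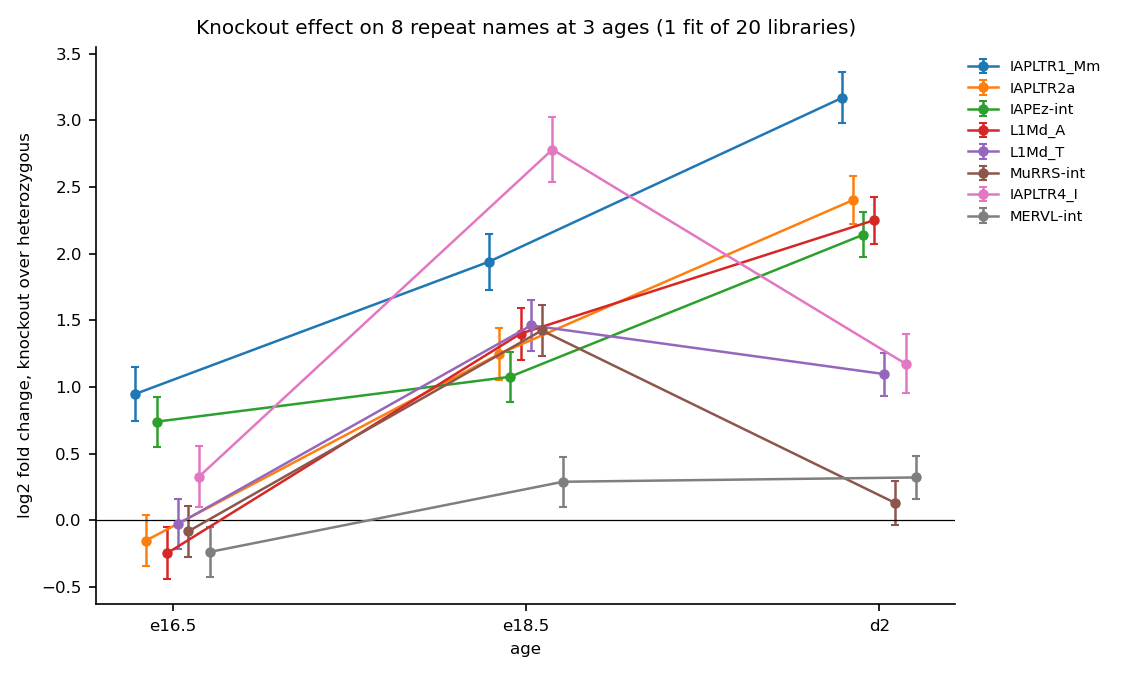
Log2 fold change (knockout over heterozygous, joint fit of 20 libraries, bars are standard errors) of 8 repeat names at e16.5, e18.5 and d2. By their points, IAPLTR1_Mm, IAPLTR2a and IAPEz-int are highest at d2, whereas MuRRS-int and IAPLTR4_I are highest at e18.5 and MERVL-int lies between -0.24 and 0.32.

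Rises called at d2 and at e18.5 were compared among features tested at both ages. At e18.5, 7.52% of repeat names and 2.06% of genes tested had risen. For repeat names 50 rises were shared, 54.3% of the 92 at d2 and 61.7% of the 81 at e18.5. For genes 60 were shared, 19.9% of 301 at d2 and 32.3% of 186 at e18.5. Leaving out the library labelled knockout replicate 2 of d2, 53 repeat names were shared, 34.9% of 152 at d2 and 65.4% of those at e18.5, and 62 genes, 14.9% of 415 at d2 and 33.3% of those at e18.5. The 2 ages have no library in common.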

How the data were processed

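RNA of flow-sorted male germ cells was measured in 4 knockout and 4 heterozygous libraries at d2, with 12 libraries at e16.5 and e18.5 used only in the age comparison. Per the submitters' processing notes STAR, featureCounts, edgeR and Bowtie were used with the mouse build mm9; their versions, the counting of reads with several positions and the use of strand are not given in the sources used here, so genes that overlap, lie antisense or are nearly identical may have been given each other's reads. The authors deposited raw read counts per gene symbol and repeat name for each age. They also deposited estimated counts per repeat family, of which 64.9% of values at d2 were not whole, and these were rounded. A family row with no name (2.88 to 3.83% of family counts at d2) was left out, and 0 sample columns were unmapped.

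Genes, repeat names and families were tested with edgeR 4.0.16 (R 4.3.3): low features were removed with filterByExpr (minimum count 10, minimum total 15), TMM factors came from the gene counts for genes and repeats alike, and genotype was tested in robust quasi-likelihood fits with a Benjamini-Hochberg threshold of 0.05. The SE is the log2 fold change divided by the root of the F statistic. A joint fit on 23853 common symbols tested differences of the knockout effect between ages. Repeat share used a two-sided exact permutation test (scipy 1.17.1). On simulated counts the gene fit recovered 37.4% of log2 changes of 1 and 85.9% of 2 (15053 genes), and the repeat fit 88.7% and 100% (1072 names). Counting error is all that the 95% intervals and the floor of 3 counts per group take in.

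Named genes are Tex15, the 12 largest rises and 12 largest falls among called genes whose genotypes did not overlap (mean log2 CPM of 1 or more), and the 10 smallest p-values per direction (mean log2 CPM of 5 or more), without Gm and Rik symbols. Up to 4 called members per list, or 2 where none was called, the 15 repeat names with the smallest p and the 8 age differences with the smallest p were added. Members called only without knockout replicate 2, and Rn45s, were named after their values were seen. A gene that this rule names is not reported here. The members, the 32 gene lists and the 12 repeat groups were chosen with earlier results of these data known. Alternatives left out each library in turn, used DESeq2 1.42.0, took factors by the median ratio, dropped the filter or set it at 1 CPM, fitted all ages together, scaled repeats on their own counts, or added a replicate block. No library duplicated another. In gene levels same-numbered libraries did not deviate together, so the replicate numbers were not used as pairs. The repeats were not part of that check.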

Additional observations from a re-analysis of the deposited data

Results flagged for a closer look

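In 16 of 290 groups of 4 libraries, 1 library lay apart from the other 3 by Dixon's test at the 95% level, 5.52% where chance gives about 5%. Knockout replicate 2 was that library for Tex15 (104 CPM), Fam135a (460.1 CPM), the repeat name MLT1L-int (5.34 CPM) and the DNA transposon Kanga1c (29.2 CPM). Tex15 and MLT1L-int were high in it, and Fam135a and Kanga1c low. Knockout replicate 3 was low for Clec2g (11.9 CPM) and Bag6 (111 CPM) and high for MT2_Mm (249.5 CPM), and knockout replicate 4 was low for Hspa8 (42.1 CPM). Heterozygous replicate 4 was high for Apoh (1.39 CPM), Asb12 (0.581 CPM), Upk1b (19.6 CPM) and H60b (12.3 CPM). Heterozygous replicate 3 was high for Vmn1r195 (0.233 CPM) and Gadd45g (5.83 CPM), and heterozygous replicate 2 low for IAPLTR2a (45.9 CPM) and L1Md_T (2832 CPM).

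The knockout effect of some named genes differed between ages in the test of the difference itself. The difference d2 minus e18.5, on the log2 scale, was 3.91 for Samd9l, 3.84 for Cdh12, 2.89 for Atp13a5, 3.94 for Cyp4a12b, 5.24 for Gnat3, 3.04 for Abcb11, 3.17 for Spag16 and 1.49 for Abca1. The difference d2 minus e16.5 was 4.40 for Samd9l, 5.70 for Cdh12, 4.91 for Abcb11, 5.70 for Cyp4a12b, 4.10 for Tmc2, 5.95 for Slco1a5, 7.02 for Gnat3 and 3.61 for Atp13a5.

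Among repeat names the difference d2 minus e18.5 was 1.23 for IAPLTR1_Mm, 1.15 for IAPLTR2a, 1.07 for IAPEz-int, 3.41 for MLT1L-int and 4.03 for SYNREP_MM. It was negative for MURVY-int (-1.34), MuRRS-int (-1.29) and IAPLTR4_I (-1.61). The difference d2 minus e16.5 was 2.22 for IAPLTR1_Mm, 2.55 for IAPLTR2a, 2.35 for IAPLTR2b, 1.40 for IAPEz-int, 2.50 for L1Md_A, 1.70 for L1Md_Gf, 1.66 for RLTR10A and 1.64 for RLTR46.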

How the results depend on the processing

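Of 2064 values of single features at d2 under the alternatives, 1855 kept direction and side of the threshold, 39 passed newly, 156 no longer passed and 14 changed sign. All 544 values of the named age differences kept both. The 14 sign changes were Nr5a1 without knockout replicate 3 (0.067) or heterozygous replicate 4 (0.31; its range without 1 library was -0.41 to 0.31), Csf1r without knockout replicate 4 (-0.010, range to 0.61), and Alas2 without knockout replicate 1 (-0.10, range to 0.34) or heterozygous replicate 1 (-0.038). The others were RMER6A without heterozygous replicate 2 (-0.0077, range to 0.18) and, under the repeats' own scaling, RMER6A (-0.10), MT2A (-0.023), MTD (-0.056), URR1A (-0.040), MuRRS-int (-0.069), Alu (-0.013), MaLR (-0.0019) and B4 (-0.059). None of these had passed the test; apart from the scaling, the cause was not tested.

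DESeq2 called 766 genes (512 higher, 254 lower) and the fit of all ages 770 (498 higher, 272 lower), against 430. Leaving out 1 library gave 187 to 578 genes (154 to 437 higher, 33 to 141 lower), 66 to 154 repeat names (64 to 152 higher, 1 to 2 lower) and 0 to 5 families. For the age differences it gave 31 to 226 genes against e18.5, and 92 to 237 genes, 45 to 243 repeat names and 1 to 3 families against e16.5. The repeats' own scaling called 24 names and 1 family lower, no filter 2 names lower and all ages in 1 fit 3 names lower.

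In gene levels the replicate numbers showed no pairing: correlations of same-numbered libraries were -0.209 to 0.0783, with 0 of 4 over 0.1. Repeats were not part of that check. Their share of counts was 51.6, 45.7, 52.9 and 50.6% in the knockout libraries and 48.3, 43.2, 48.9 and 51.6% in the heterozygous libraries, in the order of replicates. It was lowest in replicate 2 of both genotypes, and pairing of the repeats by number was not tested. The replicate block called 234 genes (198 higher, 36 lower), 188 repeat names (183 higher, 5 lower) and 5 families, all higher. For the age differences it called 48 genes against e18.5 and 189 repeat names against e16.5. For the repeat share the paired exact permutation test gave p = 0.25 (smallest possible 0.125). At this depth most log2 changes of 1 in genes were not recovered in simulated data, so uncalled genes are not shown to be unchanged.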
